A study of Mus musculus with 6 samples.

Results

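Numbered zinc-finger protein genes, selected on their mean FPKM over both genotypes together, were taken as all rows of the 6 deposited FPKM tables with a symbol made of Zfp and a number, and with a mean of at least 1 FPKM over the 6 libraries. There were 187 such genes among 349 numbered Zfp genes and 21528 genes listed in any table. Liver RNA came from 3 WT and 3 TRIM24C52/55A mice, all labelled C57BL/6 (the knockin line was made on a C57Bl/6J background), 5 months of age and fed an HFD with 60% fat for 3 months, with 1 library per mouse. TRIM24C52/55A mice carry a germline CRISPR/Cas9 knockin that replaces Cys52 and Cys55 of endogenous TRIM24, in its RING E3-ligase domain, with alanine, so the mutation was present in every cell type and not in hepatocytes alone. The labels give no sex. The liver is a mixed tissue, and in such bulk RNA fewer cells of a type and less RNA per cell cannot be told apart.

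Most numbered Zfp genes encode C2H2 zinc-finger proteins, in which each finger folds around a zinc ion held by a pair of cysteines and a pair of histidines and reads a few bases of DNA. Many also carry a KRAB domain, which recruits TRIM28 (KAP1), a relative of TRIM24 in the same TRIM protein family. TRIM28 in turn brings SETDB1 and HP1 proteins, which mark and compact chromatin. KRAB zinc-finger proteins are best known for silencing transposable elements and for keeping imprinted marks, and their genes arose by repeated local duplication, so that near copies lie side by side in arrays. Some numbered Zfp genes encode proteins with other roles, such as the mRNA-decay factor ZFP36, whose fingers are of the CCCH type, and the ubiquitin ligases ZFP91 and ZFP598.

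Among the 187 genes, the highest log2 fold changes were those of Zfp992, Zfp993 and Zfp979. These lay in one array of KRAB zinc-finger genes on chromosome 4. The promoters of some of its genes are near copies of each other, and 4 of them are printed here to show how alike genes of the array are (RefSeq, GRCm38.p6, from 250 bases before to 50 bases after the annotated start). Zfp979 lies on the minus strand at chr4:147642459-147642758, Zfp982 on the plus strand at chr4:147492167-147492466, Zfp984 on the minus strand at chr4:147809739-147810038 and Zfp933 on the minus strand at chr4:147848369-147848668. Capitals mark the letters CCAAT (the CCAAT box) and GGGCGG (the GC box), each searched on both strands.
Zfp979: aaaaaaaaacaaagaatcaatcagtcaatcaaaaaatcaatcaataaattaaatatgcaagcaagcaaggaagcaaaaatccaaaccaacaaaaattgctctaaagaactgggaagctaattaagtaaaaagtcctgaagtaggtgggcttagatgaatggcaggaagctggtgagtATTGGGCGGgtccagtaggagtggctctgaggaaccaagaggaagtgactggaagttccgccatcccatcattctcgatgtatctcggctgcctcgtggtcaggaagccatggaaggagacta
Zfp982: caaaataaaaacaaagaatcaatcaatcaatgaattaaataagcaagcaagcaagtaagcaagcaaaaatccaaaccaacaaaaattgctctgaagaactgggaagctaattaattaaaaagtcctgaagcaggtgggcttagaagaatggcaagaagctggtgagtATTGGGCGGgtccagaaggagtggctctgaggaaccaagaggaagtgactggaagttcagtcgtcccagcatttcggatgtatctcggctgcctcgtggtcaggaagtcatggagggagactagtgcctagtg
Zfp984: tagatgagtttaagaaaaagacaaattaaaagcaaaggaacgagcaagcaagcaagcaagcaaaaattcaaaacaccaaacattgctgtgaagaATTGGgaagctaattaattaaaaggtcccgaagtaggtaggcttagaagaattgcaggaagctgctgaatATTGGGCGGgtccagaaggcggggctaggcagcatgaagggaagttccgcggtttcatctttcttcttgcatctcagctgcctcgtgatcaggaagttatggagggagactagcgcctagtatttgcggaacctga
Zfp933: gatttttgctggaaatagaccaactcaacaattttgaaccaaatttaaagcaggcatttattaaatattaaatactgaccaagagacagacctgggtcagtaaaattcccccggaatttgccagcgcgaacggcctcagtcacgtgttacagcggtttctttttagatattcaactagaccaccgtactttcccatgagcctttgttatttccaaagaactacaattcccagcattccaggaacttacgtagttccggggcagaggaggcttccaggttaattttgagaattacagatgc
Of the aligned bases, 91.7% were identical between Zfp979 and Zfp982, with a longest shared run of 42 bases. Identity was 79.7% between Zfp979 and Zfp984 and 81.6% between Zfp982 and Zfp984, but 60.5% between Zfp979 and Zfp933. In the first 3, a reversed CCAAT box ran into a GC box to give ATTGGGCGG. Of 11 numbered Zfp genes of the array with a RefSeq promoter entry, the entries of Zfp981 and Zfp993 lie 12.9 and 98.1 kb from the GENCODE M21 start and were left out. Of the other 9, 6 held this string on either strand in at least 1 listed promoter, against 82 of all 27025 genes with a promoter, or 0.303%. The string was chosen after these promoters were seen.

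Levels of the 187 genes were low. Their mean ran from 1.01 to 29.7 FPKM with a median of 2.47, against a median of 5.76 FPKM for all 12225 genes tested (those with a mean of at least 0.5 FPKM). Of the 187, 67 lay under 2 FPKM and 12 over 10 FPKM. All 187 were listed in each of the 6 tables, and all are annotated as protein coding in GENCODE M21. FPKM keep no read count, and the number of fragments behind a value near 1 FPKM is not known from the tables, so small differences among the lowest genes carry little precision. The genes next to the limit were not sharply set apart. Zfp668, Zfp27 and Zfp282, just inside, had means of 1.01, 1.01 and 1.03 FPKM, and Zfp867, Zfp526 and Zfp799, just outside, had 0.992, 0.990 and 0.986 FPKM.

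Between genotypes, 5 of the 187 genes were higher and 3 were lower in the TRIM24C52/55A liver, by limma on log2(FPKM + 1) with a Benjamini-Hochberg adjusted p under 0.05 over all genes tested. The higher genes were Zfp992, Zfp993, Zfp979, Zfp141 and Zfp84, and the lower genes were Zfp36, Zfp64 and Zfp579. Higher calls made up 2.67% of the numbered Zfp genes and 1.64% of all genes tested. Lower calls made up 1.6% of them and 6.09% of all genes tested. That last share depended on the scaling: the 200 higher and 744 lower genes became 197 and 1358 with TPM, 250 and 406 with median-of-ratios, and 255 and 378 with quantile normalization. Among the 8849 genes in the same range of mean FPKM, 1.15% were higher and 4.55% lower. In 32 of the 187 every TRIM24C52/55A library lay above every WT library, and in 14 every one lay below. Over all genes tested these shares were 6.31% above and 22.5% below. Before adjustment, 21 of the 187 were higher and 8 lower at p under 0.05, where 4.63% and 19% of all genes were. The number of calls among the 187 moved when single libraries were left out. Without WT replicate 1, WT replicate 3 or TRIM24C52/55A replicate 1 it fell to 2 higher and 0 lower, and calls over all genes fell to between 88 and 96 higher and between 202 and 217 lower. Without WT replicate 2 it was 3 higher and 2 lower, without TRIM24C52/55A replicate 3 it was 5 higher and 1 lower, and without TRIM24C52/55A replicate 2 it was 7 higher and 3 lower. Adipocyte markers summed to 74.2 FPKM in that last library and to 14.5 to 27.7 FPKM in the other 5. All 8 genes were called without it. Over the 6 fits without 1 library, log2 fold changes ran from 0.70 to 0.99 for Zfp979, from -1.03 to -0.73 for Zfp64, from -1.29 to -0.88 for Zfp579 and from -0.69 to -0.45 for Zfp36.

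The 187 genes had a median fold change slightly above that of all genes. Their median log2 fold change was 0.04 (quartiles -0.07 and 0.15), and 113 of them, or 60.4%, were above 0. These values include 12 genes that reached the 1 FPKM limit through the TRIM24C52/55A mean alone and so had to lie above 0. Over the 174 genes with both group means at 1 FPKM the median was 0.03, with 58.0% above 0. The median of all genes tested was -0.08, with 34.5% above 0. The sign of the median depended on the scaling of the libraries, while the gap to all genes did not change direction. With TPM, in which every library is scaled to one total, 49.2% of the 187 and 25.8% of all genes were above 0. With median-of-ratios scaling these shares were 77.0% and 51.5%. The median of the 187 exceeded that of all genes by 0.06 to 0.15 in the reported fit and the 14 alternatives. Summed over the 187, FPKM were 701.7, 704.5 and 738.7 in the WT livers and 715.1, 741.5 and 727.5 in the TRIM24C52/55A livers, so the total overlapped between genotypes.

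**Figure D1:**
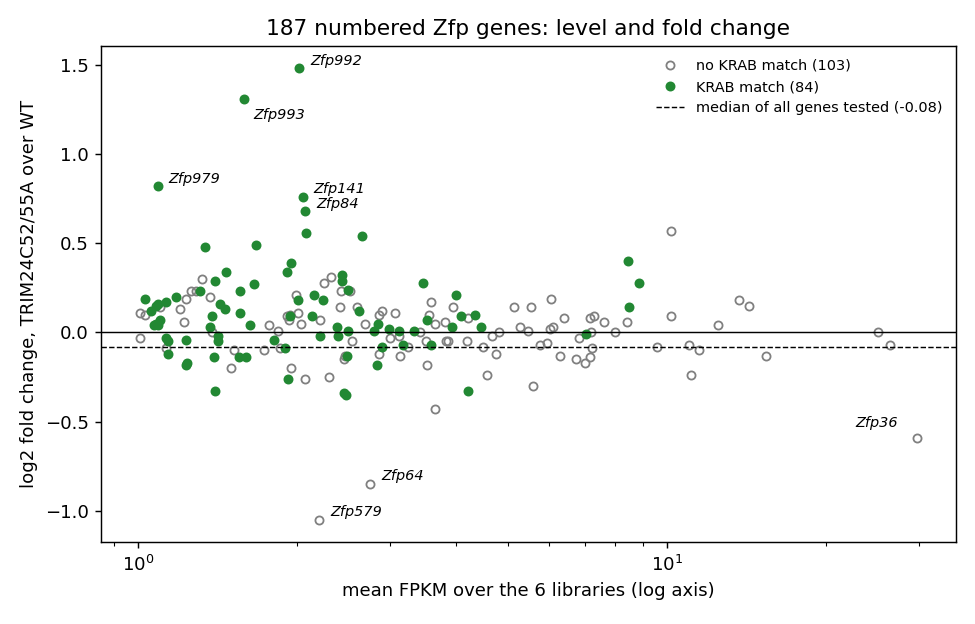
Mean FPKM over the 6 libraries (log axis) against the log2 fold change of TRIM24C52/55A over WT on log2(FPKM + 1), 1 point per numbered Zfp gene (187). Filled points are the 84 genes with a KRAB match and open points the 103 without, the 8 called genes are named, and the dashed line is the median of all genes tested, -0.08. All 5 higher genes lie under 3 FPKM and have a KRAB match. Of these 5, Zfp992, Zfp993 and Zfp979 lie in one array and reached 1 FPKM through the TRIM24C52/55A mean alone.

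The numbers of higher and lower genes have to be read with the 1 FPKM limit in mind. In 174 of the 187 both group means reached 1 FPKM, and of these 2 were higher (Zfp84, Zfp141) and 3 lower. In 12 the TRIM24C52/55A mean alone reached 1 FPKM, and these had to lie above WT. Zfp992, Zfp993 and Zfp979 are among those 12. In 1 gene the WT mean alone did. Below the limit, 60 of 162 numbered Zfp genes could be tested, with 1 higher, 0 lower and a median log2 fold change of 0.07 (limma; 3 were higher and 4 lower at an unadjusted p under 0.05). The 1 higher gene was Zfp951, with 0.345, 0.326 and 0.528 FPKM in WT and 1.21, 1.16 and 1.05 FPKM in TRIM24C52/55A libraries (log2 fold change 0.61, limma with Benjamini-Hochberg adjustment, adjusted p = 0.0152), and the call was lost without WT replicate 1 or 2 or TRIM24C52/55A replicate 1 (adjusted p from 0.0556 to 0.064, limma).

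Zfp992 and Zfp993, KRAB zinc-finger genes of the chromosome 4 array, had the steepest rises among the 187. Replicates 1 to 3 of WT held 0.348, 0.758 and 0.659 FPKM of Zfp992, and replicates 1 to 3 of TRIM24C52/55A held 3.37, 2.72 and 4.29 FPKM. Zfp993 had 0.318, 0.571 and 0.569 FPKM in WT and 2.38, 2.99 and 2.71 FPKM in TRIM24C52/55A libraries. Every TRIM24C52/55A library was above every WT library for both genes, with a ratio of means of 5.88 and 5.54. On the log2 scale Zfp992 rose by 1.48 (limma, standard error 0.16, Benjamini-Hochberg adjusted p = 0.00237) and Zfp993 by 1.31 (limma, standard error 0.12, adjusted p = 0.0011). Both kept an adjusted p under 0.05 in each of 14 alternatives (limma; highest 0.0222 and 0.0142). An exact permutation test of 3 against 3 cannot give a two-sided p under 0.1. Zfp979 had 0.506, 0.5 and 0.492 FPKM in WT and 2.12, 1.84 and 1.09 FPKM in TRIM24C52/55A libraries, again without overlap. It rose by 0.82 on the log2 scale (limma, standard error 0.15, adjusted p = 0.0194). That call was lost in 5 of 14 alternatives, with an adjusted p of up to 0.0736 (limma), among them the fits without WT replicate 1, 2 or 3 or without TRIM24C52/55A replicate 1.

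**Figure D2:**
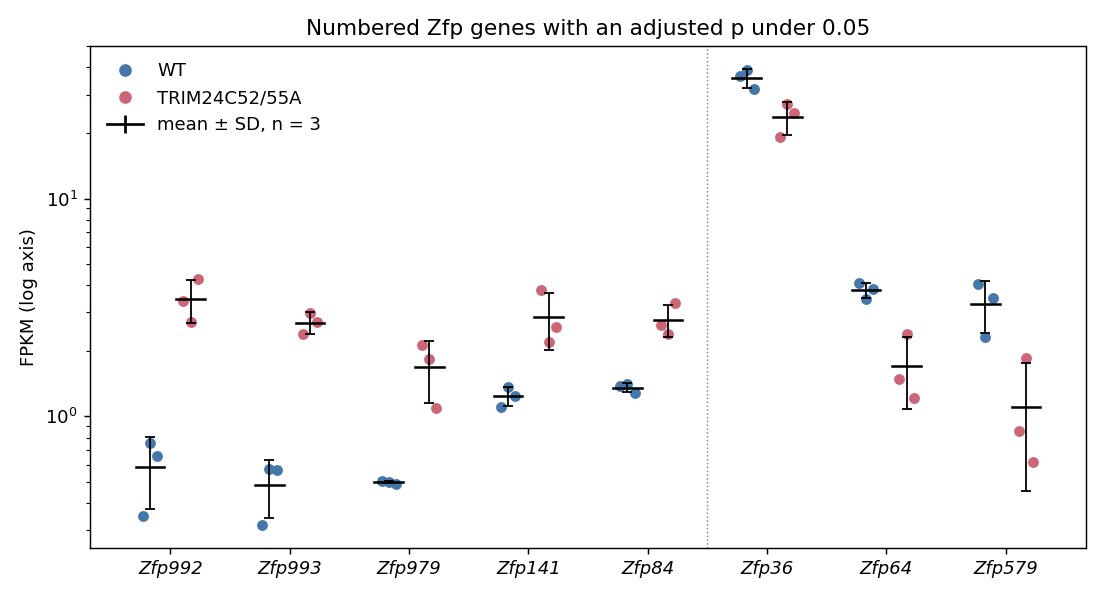
FPKM (log axis) of the 8 numbered Zfp genes with an adjusted p under 0.05, 1 point per library, with the mean and SD of 3 WT (left of each pair) and 3 TRIM24C52/55A libraries. The genotypes do not overlap in any of the 8, and the dotted line divides the 5 higher from the 3 lower genes.

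The other tested numbered Zfp genes of the array also had log2 fold changes above 0, but did not pass the test. Zfp982, the neighbour whose promoter nearly matches that of Zfp979, had 1.63, 1.86 and 2.38 FPKM in WT and 4.26, 2.46 and 3.28 FPKM in TRIM24C52/55A libraries. The groups did not overlap, but the lowest TRIM24C52/55A library was close to the highest WT library, and the adjusted p was 0.0948 (log2 fold change 0.54, limma). Zfp933, whose promoter is unlike theirs, had 1.26, 0.891 and 1.10 FPKM in WT and 1.57, 1.14 and 1.4 FPKM in TRIM24C52/55A libraries, which overlap (log2 fold change 0.19, adjusted p = 0.407, limma). Zfp984, under the 1 FPKM limit, had 0.637 ± 0.0788 FPKM in WT and 0.935 ± 0.131 FPKM in TRIM24C52/55A livers (SD, n = 3 each), with a log2 fold change of 0.24 (adjusted p = 0.222, limma). In all, 15 numbered Zfp genes were listed over 1.75 Mb, from 146097298 to 147848366 (GRCm38). Their summed FPKM were 5.37, 5.62 and 6.52 in WT and 16.3, 14.0 and 15.0 in TRIM24C52/55A libraries. All 6 that could be tested had a log2 fold change above 0, and 3 were called. Over all genes tested, 34.5% were above 0 and 1.64% were called higher. Zfp992, Zfp993 and Zfp979, the 3 called, reached 1 FPKM through the TRIM24C52/55A mean alone and so had to lie above 0. With WT means of 0.486 and 0.499 FPKM, Zfp993 and Zfp979 also passed the 0.5 FPKM limit for testing that way. Of those not tested, Zfp981 had a lower TRIM24C52/55A mean (ratio of means 0.892) and the rest had higher ones. Of 2 other tested genes between the numbered Zfp genes, the lincRNA Gm13166 was also called. It had 1.08, 4.17 and 2.50 FPKM in WT and 9.62, 9.09 and 13.8 FPKM in TRIM24C52/55A libraries (log2 fold change 1.80, adjusted p = 0.0133, limma). Its call was lost without WT replicate 3 (adjusted p = 0.0521, limma) or TRIM24C52/55A replicate 1 (0.0511). Gm13169, a processed pseudogene, had a log2 fold change of 0.08. Within 1 Mb on either side, 21 genes were tested, with a median log2 fold change of 0.01. Of these, 0 were called higher and 1 lower (limma), the mitochondrial fusion gene Mfn2 (-0.42). At an unadjusted p under 0.05 (limma), 3 were higher and 3 lower. The call of Mfn2 was lost without WT replicate 1, WT replicate 3 or TRIM24C52/55A replicate 1 (adjusted p from 0.0682 to 0.0828, limma).

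**Figure D3:**
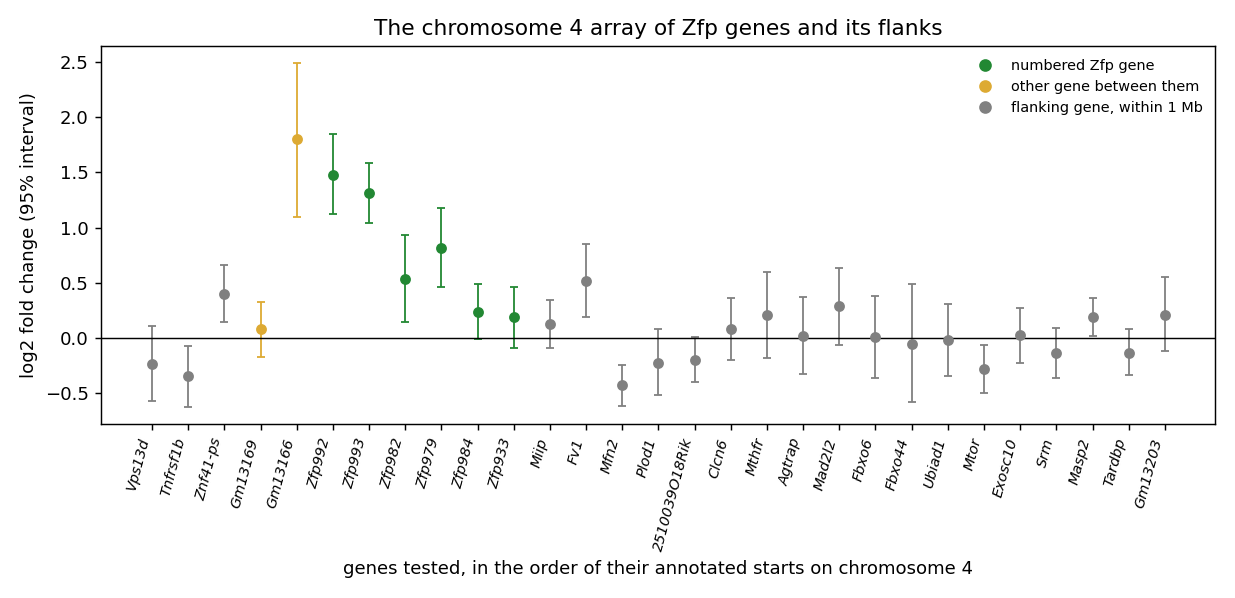
Log2 fold change of TRIM24C52/55A over WT with its 95% interval (limma) for each gene tested in the chromosome 4 array and within 1 Mb of it, in the order of annotated starts. Numbered Zfp genes are green, other genes between them yellow and flanking genes grey. The intervals of Gm13166, Zfp992, Zfp993, Zfp982 and Zfp979 lie above 0, as do those of the flanking Znf41-ps, Fv1 and Masp2. Those of the flanking Tnfrsf1b, Mfn2 and Mtor lie below 0.

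Values of single genes in this array are uncertain, because the genes share sequence and, in the files, an interval. The files give Zfp992, Zfp993, Zfp991 and Gm13166 one common interval, chromosome 4 from 146153456 to 147492201. GENCODE M21 places Zfp992 from 146449023 to 146470292 and Zfp993 from 146610961 to 146658160, both on the plus strand. Of all stretches of 50 bases in the annotated transcript, 86.8% for Zfp993 and 43.7% for Zfp992 also occur in transcripts of other genes, for Zfp993 in those of Zfp991, Zfp992, Gm13166 and the pseudogene Znf41-ps. The share was 24.6% for Zfp979 and 11.5% for Zfp982. How the quantification split fragments among these copies was not tested.

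Zfp84 and Zfp141, KRAB zinc-finger genes of 2 different arrays on chromosome 7, were the other higher genes. Zfp84 (chromosome 7, 29768552 to 29779821, plus strand) had 1.38, 1.41 and 1.28 FPKM in WT and 2.63, 2.40 and 3.30 FPKM in TRIM24C52/55A libraries. It shares no stretch of 50 bases with another gene's transcript, and it rose by 0.68 on the log2 scale (limma, standard error 0.12, adjusted p = 0.0142). Zfp141 (chromosome 7, 42473386 to 42505740, minus strand) had 1.11, 1.36 and 1.24 FPKM in WT and 3.79, 2.20 and 2.57 FPKM in TRIM24C52/55A libraries (log2 fold change 0.76, standard error 0.16, adjusted p = 0.0245, limma). Of its stretches of 50 bases 11.7% also occur in transcripts of other genes. Neither gene's groups overlapped. The call of Zfp84 was kept in 10 and that of Zfp141 in 8 of 14 alternatives, and both were lost without WT replicate 1, WT replicate 3 or TRIM24C52/55A replicate 1 (adjusted p between 0.0521 and 0.0886, limma), and that of Zfp141 also without WT replicate 2 (0.0606). Over all 6 fits without 1 library the log2 fold change ran from 0.58 to 0.75 for Zfp84 and from 0.60 to 0.89 for Zfp141.

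The lower genes were of other kinds. Zfp36 encodes tristetraprolin, a CCCH zinc-finger protein that binds AU-rich elements of mRNA and promotes their decay, and it had the highest mean of the 187. It had 36.5, 39.0 and 31.9 FPKM in WT and 19.1, 27.1 and 24.6 FPKM in TRIM24C52/55A libraries, without overlap, for a ratio of means of 0.659. On the log2 scale it fell by 0.59 (limma, standard error 0.13, adjusted p = 0.035), and the call was kept in 4 of 14 alternatives. It was lost without any 1 of the 3 WT replicates or of TRIM24C52/55A replicates 1 and 3, with adjusted p-values from 0.0573 to 0.113 (limma). Its interval in the files is more than 3 times longer than the annotated gene, and whether fragments of a neighbour are included was not tested. Zfp64, a C2H2 transcription factor without a KRAB match, had 4.08, 3.47 and 3.85 FPKM in WT and 1.48, 2.39 and 1.22 FPKM in TRIM24C52/55A libraries (log2 fold change -0.85, standard error 0.16, adjusted p = 0.0189, limma). Zfp579, also without a KRAB match, had 4.06, 2.32 and 3.50 FPKM in WT and 0.853, 1.85 and 0.621 FPKM in TRIM24C52/55A libraries (log2 fold change -1.05, standard error 0.23, adjusted p = 0.0326, limma). Neither overlapped, and WT replicate 2 of Zfp579 lay nearest to the TRIM24C52/55A libraries. Both lost the call without WT replicate 1, WT replicate 3 or TRIM24C52/55A replicate 1 (adjusted p between 0.0717 and 0.123, limma), and Zfp579 also without TRIM24C52/55A replicate 3 (0.0713). A GC box was in 49.4% of the 158 numbered Zfp genes with a RefSeq promoter and in 35.9% of all promoters. Over those 158, a CCAAT box was in 79 (37.9% of all promoters had one) and a TATA box, TATAAA, in 4.43% (14.2% of all), both strands searched.

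All 5 higher genes and none of the 3 lower genes matched a KRAB pattern. A match to the start of the KRAB A-box, with at most 2 letters off in the first 150 residues of the translated GENCODE M21 coding sequence, was found in 84 of the 187 genes. The 84 had 58 genes above 0 and a median log2 fold change of 0.08. The other 103 held 0 higher and 3 lower genes, with 55 above 0 and a median of 0.01. At an unadjusted p under 0.05 the counts were 16 higher and 2 lower with a match, and 5 higher and 6 lower without. Over all genes tested, 4.63% were higher and 19% lower at that threshold, and 1.64% were called higher and 6.09% lower. Where both group means reached 1 FPKM, 75 genes with a match had 2 higher and 0 lower calls and a median of 0.04, and 99 without had 0 and 3 with a median of 0.00. The difference between the groups of genes was not tested, and the pattern is approximate. It misses KRAB domains placed later in the protein, and it matched Zfp148, which is not known as a KRAB gene. Fingers numbered 9 in the median protein, from 0 to 36. The 91 genes with 10 or more fingers held 3 higher and 0 lower genes, and the 96 with fewer held 2 and 3.

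Next in order of p among the 187 were further KRAB zinc-finger genes that did not pass the adjusted threshold and were chosen here after their values were seen. Zfp54, on chromosome 17, had 0.823, 0.940 and 1.06 FPKM in WT and 1.39, 1.66 and 2.15 FPKM in TRIM24C52/55A libraries (log2 fold change 0.48, adjusted p = 0.0598, limma). Zfp930, on chromosome 8, had 1.23 ± 0.348 and 2.12 ± 0.307 FPKM (SD, n = 3 each), with an adjusted p of 0.073 (limma). Zfp110, on chromosome 7, had 7.13 ± 0.454 and 9.76 ± 1.36 FPKM (SD, n = 3 each), with an adjusted p of 0.0742 (limma). In each of these 3 the genotypes did not overlap.

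By position, the 187 genes lay on 20 chromosomes, 43 of them on chromosome 7. Runs of 3 or more with successive starts at most 1 Mb apart formed 19 clusters of 3 to 14 genes, holding 94 genes, and 93 lay outside. Of the 94, 3 were higher (3.19%) and 1 lower (1.06%), and of the 93, 2 were higher and 2 lower (2.15% each). Over all genes tested, 1.64% were higher and 6.09% lower. Zfp992 and Zfp993 fell outside the chromosome 4 cluster by the start of their shared interval in the files. With annotated starts, or with a gap of 2 Mb, they joined Zfp982, Zfp979 and Zfp933, and the clusters then held 5 higher genes. Of the 19 clusters, 4 held a called gene and 13 had a median above 0. Cluster medians ran from -0.24 to 0.54, and the chromosome 4 cluster had the highest. It had 3 genes, of which Zfp979 reached 1 FPKM through the TRIM24C52/55A mean alone and so had to lie above 0. Without Zfp979 that run would not have met the minimum of 3. With starts from the files and a gap of 1 Mb no cluster held more than 1 called gene, whereas with annotated starts or a gap of 2 Mb the chromosome 4 cluster held 3. Those 3, Zfp992, Zfp993 and Zfp979, all passed the 1 FPKM limit through the TRIM24C52/55A mean alone.

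The clusters of chromosome 7 were not alike. Zfp84 stood in a cluster of 9 genes with a median of 0.07, in which 7 were above 0 and none of the other 8 was called. Zfp141 stood in a cluster of 3 with a median of 0.13. Zfp579 stood in a cluster of 4 with a median of -0.16, between Zfp628 and Zfp524, neither of which was called. A cluster of 8 near 127 Mb, from Zfp553 to Zfp668, had 1 of 8 above 0 and a median of -0.10, and its 28 other tested genes had a median of -0.02. Over all of chromosome 7, 18 of 43 genes were above 0, with 2 higher and 2 lower calls. The cluster with the most genes, 14 on chromosome 17 from 21008941 to 23564226, had 9 above 0, a median of 0.03 and 0 calls (limma), although Zfp54, Zfp53 and Zfp51 were higher at an unadjusted p under 0.05. None of the 11 numbered Zfp genes anywhere on chromosome 6, which carries Trim24, was called, and their median was 0.10. With 1.64% of all genes tested called higher and 6.09% lower, no call among 11 genes says little.

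**Figure D4:**
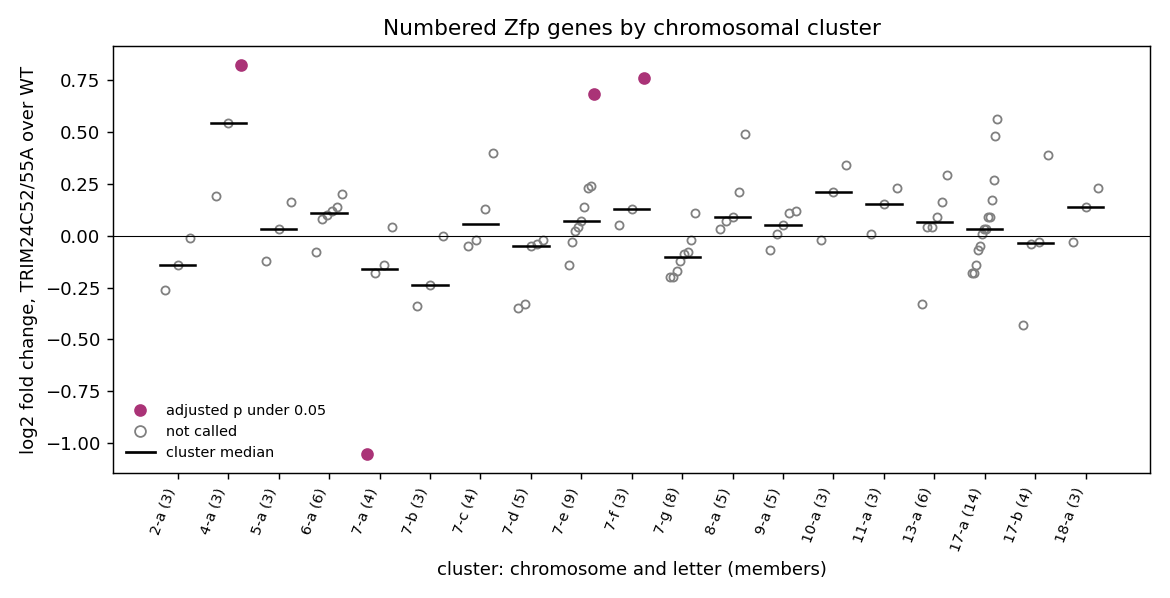
Log2 fold change of TRIM24C52/55A over WT for the 94 numbered Zfp genes in 19 chromosomal clusters, named by chromosome and letter with the number of genes in parentheses. Filled points have an adjusted p under 0.05 (limma), open points do not, and bars are cluster medians. Zfp992 and Zfp993 are not shown, as their shared interval in the files starts over 1 Mb away from the chromosome 4 cluster. That cluster has the highest median, 0.54, and with these starts no cluster holds more than 1 filled point. Its 3 genes include Zfp979, which reached 1 FPKM through the TRIM24C52/55A mean alone.

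Besides Zfp36, the abundant numbered Zfp genes were not called. Zfp207, a spindle-checkpoint and splicing protein, had 25.1 ± 0.036 FPKM in WT and 25.2 ± 1.64 FPKM in TRIM24C52/55A livers (SD, n = 3 each), with a 95% interval of the log2 fold change from -0.18 to 0.18. Zfp706, a small C2H2 protein, had 27.1 ± 1.15 and 25.8 ± 0.978 FPKM (SD, n = 3 each; interval from -0.24 to 0.11). Zfp91, an E3 ubiquitin ligase, had 16.2 ± 1.03 and 14.7 ± 1.25 FPKM (SD, n = 3 each; interval from -0.35 to 0.08). For Zfp598, the E3 ligase that marks collided ribosomes, all TRIM24C52/55A libraries (14.3 to 16.3 FPKM) lay above the WT libraries (12.8 to 14.2 FPKM), but the log2 fold change was 0.15 with an adjusted p of 0.353 (limma). Zfp622, which acts in assembly of the large ribosomal subunit, had a log2 fold change of -0.08 (interval from -0.34 to 0.19). These intervals leave out a 2-fold change in either direction.

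Regulators of transcription with known targets were also not called. Zfp410, an activator of the chromatin remodeller gene Chd4, had 6.25 ± 0.526 FPKM in WT and 4.90 ± 0.369 FPKM in TRIM24C52/55A livers (SD, n = 3 each), without overlap, and a log2 fold change of -0.30 (adjusted p = 0.116, limma). Chd4 itself had a log2 fold change of -0.03. Log2 fold changes were 0.21 for Zfp143, an activator of small nuclear RNA genes, 0.02 for Zfp148 and -0.15 for Zfp281, both of which bind GC-rich promoters, 0.03 for Zfp592 and 0.11 for Zfp687, partners in one chromatin complex, and 0.03 for Zfp326, a factor in transcript elongation and splicing. Their adjusted p-values lay between 0.508 and 0.941 (limma). Zfp106, an RNA-binding protein, was at 0.09 and Zfp467, a regulator of bone and fat cell fate, at 0.08.

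KRAB zinc-finger genes with known silencing targets gave mixed values. Zfp809, which silences retroviral DNA, had 6.58, 7.91 and 8.30 FPKM in WT and 8.28, 5.97 and 16.2 FPKM in TRIM24C52/55A libraries, so that 1 library set the difference (log2 fold change 0.28, adjusted p = 0.623, limma). Without TRIM24C52/55A replicate 3 it was -0.09. Zfp568, a repressor of a placental Igf2 transcript, was at 0.04. Zfp445, which with Zfp57 keeps imprinted methylation, had 6.04, 7.74 and 10.3 FPKM in WT and 12.9, 9.12 and 15.1 FPKM in TRIM24C52/55A libraries, which overlap (log2 fold change 0.57, adjusted p = 0.145, limma). Zfp445 was named after its values were seen. Zfp57 itself, under the 1 FPKM limit, had 0.591 ± 0.197 and 0.659 ± 0.208 FPKM (SD, n = 3 each).

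The proteins through which KRAB zinc-finger proteins act were examined as a list of 36 corepressor and heterochromatin genes, of which 31 could be tested. Of these, 1 was higher and 0 lower (limma; 2 higher and 2 lower at an unadjusted p under 0.05), and the median log2 fold change was 0.03. The higher gene was Mbd1, a methyl-CpG-binding protein, with 8.13, 10.6 and 18.0 FPKM in WT and 97.4, 81.8 and 121 FPKM in TRIM24C52/55A libraries (log2 fold change 2.98, adjusted p = 0.000956, limma). Trim28 had 20.4, 22.9 and 22.4 FPKM in WT and 21, 25.5 and 20.3 FPKM in TRIM24C52/55A libraries, which overlap (log2 fold change 0.02, adjusted p = 0.947, limma). Setdb1 was at 0.17 (adjusted p = 0.343, limma) and Trim24 at 0.14 (adjusted p = 0.713, limma). The FPKM of Trim24 does not check the genotype, since the knockin alters codons within the gene.

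Other zinc-finger families of at least 1 FPKM, 105 genes with Zbtb, Zscan, Zkscan, Klf, Zc3h, Zdhhc or lettered Zfp names, had 2 higher and 0 lower genes (limma; 9 and 9 at an unadjusted p under 0.05). Their median log2 fold change was 0.02, with 52.4% above 0. The higher genes were Zbtb5 (2.38 ± 0.0449 to 3.45 ± 0.23 FPKM, SD, n = 3 each) and Zkscan3, a regulator of autophagy and lysosome genes (14.8 ± 1.35 to 20.7 ± 1.91 FPKM, SD, n = 3 each). By family the median was 0.12 over 16 lettered Zfp genes, 0.11 over 7 Zkscan, 0.06 over 7 Zscan, -0.01 over 32 Zbtb and over 15 Zc3h, -0.07 over 17 Zdhhc and -0.19 over 11 Klf genes. The median of the 187 numbered Zfp genes was 0.04, below those of the lettered Zfp, Zkscan and Zscan genes, and differences between families were not tested. The call of Zbtb5 was lost without any 1 of the 6 libraries (adjusted p from 0.0599 to 0.14, limma), and that of Zkscan3 without any 1 of the WT replicates or without TRIM24C52/55A replicate 1 (0.0729 to 0.115).

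Markers of other cells were checked over the same libraries. Of 6 hepatocyte markers 4 were listed, at a summed 12000 to 14800 FPKM. Adipocyte markers summed to 14.5, 74.2 and 19.7 FPKM in TRIM24C52/55A replicates 1 to 3, against 18.4 to 27.7 FPKM in WT. Of these markers 8 of 9 had a higher TRIM24C52/55A mean, but only replicate 2 exceeded every WT sum. All 6 Kupffer and macrophage markers had a lower TRIM24C52/55A mean, at summed levels of 82.7 to 112 FPKM against 91.9 to 120 FPKM in WT. Endothelial markers summed to 33.9 to 38.3 against 41.0 to 42.6 FPKM, and T and B cell markers to 2.87 to 3.65 against 3.55 to 4.09 FPKM. Cholangiocyte markers summed to 21.8 to 33.9 against 28.5 to 53.7 FPKM, and stellate markers to 100 to 128 against 103 to 112 FPKM. Acinar pancreas markers summed to under 0.5 FPKM in every library. The part of these cells in the values of the numbered Zfp genes was not tested.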

How the data were processed

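For each liver (3 WT, 3 TRIM24C52/55A) the authors deposited FPKM values, that is, fragments scaled to transcript length and to mapped fragments of the library. The submitters' processing notes list bcl2fastq, Salmon 0.14.0, DESeq2 1.30.0 and GRCm38, without roles. How fragments were assigned to near copies is not given in the sources used here, and such assignment can move values between copies. FPKM summed to 644619 to 648221 in WT and 673244 to 676791 in TRIM24C52/55A libraries, and read totals were not used here.

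Genes not listed in a table were set to 0. Every gene averaging 0.5 FPKM or more was fitted as log2(FPKM + 1) with limma 3.58.1 in R 4.3.3 (trend on the mean) with Benjamini-Hochberg adjustment over all 12225 genes, and a gene was called at an adjusted p under 0.05. Fold changes on this scale understate changes of low genes. Nothing in the labels says how the 3 livers of a genotype relate beyond being separate samples, so p-values measure the spread between them. Tables were made in Python 3.11.15 (pandas 2.3.3, numpy 2.4.6 and scipy 1.17.1), and plots in matplotlib 3.10.9.

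The numbered Zfp genes and the lists were chosen with earlier results of these data known, and the Zfp genes were selected on their mean FPKM. Named genes are those called, the 5 with the highest mean, those with a known role and those next to the limit, besides those said to be chosen later. The KRAB and finger patterns (C, 2 to 4 residues, C, 12 residues, H, 3 to 5 residues, H) were read from GENCODE M21 coding sequences. RefSeq promoters were matched by symbol for 158 of 187 genes. Alternatives were the pseudocount, the filter, the scaling, the variance trend, a replicate block, each library left out, and the cluster gap. The use of annotated starts, and of genes with an interval at most 1.5 times the annotated gene, was added after seeing the data.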

Additional observations from a re-analysis of the deposited data

How the results depend on the processing

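Without a filter, calls numbered 95 higher and 252 lower over all genes, 2 and 0 among the numbered Zfp genes, 0 and 0 in clusters, and 0 higher in other zinc-finger families. Lower calls over all genes numbered 1358 with TPM, 406 with median-of-ratios and 378 with quantile normalization, where higher calls were 197, 250 and 255. The corepressor list had 1 lower call with TPM and without the variance trend. With a gap of 2 Mb clusters held 5 higher and 2 lower genes, and with annotated starts 5 higher. Among numbered Zfp genes with an interval at most 1.5 times the annotated gene 3 were higher.

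With single libraries left out, calls over all genes ranged from 88 to 239 higher and 202 to 1033 lower, among numbered Zfp genes from 2 to 7 and 0 to 3, in clusters from 0 to 5 and 0 to 1, and in other families from 0 to 2 each way. Deviations of same-numbered livers had correlations of -0.12, -0.10 and 0.00, and those of other-numbered livers ran from -0.05 to 0.14. With 3 livers per genotype such values cannot exclude a pairing. In the paper, WT controls were littermates of the knockin mice, bred from heterozygous parents, and the labels give no litter. A replicate block gave 156 higher and 422 lower genes over all, 4 and 1 among numbered Zfp genes, 0 lower in clusters and 0 higher in other families. Of 747 alternative values of 54 genes named with a level or fold change, 649 kept their direction and side of the threshold, 61 lost the call, 4 gained it and 33 changed sign. None of the sign changes was in the 14 called genes. They fell in 14 genes that were not called. With TPM the log2 fold changes were -0.03 for Zfp148, Zfp326 and Zfp592, -0.06 for Zfp207 and -0.05 for Trim28. With median-of-ratios they were 0.02 for Zfp622 and Zfp27, 0.03 for Zfp706 and 0.07 for Chd4, and with quantile normalization 0.02, 0.02, 0.07 and 0.08 for these. With single libraries left out they ran from -0.15 to 0.12 for Chd4, -0.06 to 0.35 for Trim24, -0.08 to 0.08 for Trim28, -0.02 to 0.07 for Zfp148, -0.05 to 0.03 for Zfp207, -0.11 to 0.07 for Zfp27, -0.08 to 0.15 for Zfp326, 0.00 to 0.15 for Zfp467, -0.03 to 0.16 for Zfp568, -0.05 to 0.17 for Zfp57, -0.10 to 0.19 for Zfp592, -0.14 to 0.01 for Zfp622 and from -0.09 to 0.56 for Zfp809. FPKM without counts limit what can be said of genes near 1 FPKM.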
